A study of Oryctolagus cuniculus with 30 samples.

Results

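The channels and carriers that set the water and salt content of a mucosal surface were followed in rabbit vocal folds, as a set of 10 genes of the 31346 in the count tables. They are 3 subunit genes of the epithelial sodium channel (SCNN1A, SCNN1B, SCNN1G), 2 chloride channel genes (CFTR, ANO1), 1 chloride loader (SLC12A2) and 4 aquaporins (AQP1, AQP3, AQP4, AQP5). They were taken from the tables by symbol, and all 10 passed the filter on low counts. RNA was sequenced from the dissected fold mucosa of 15 New Zealand white rabbits, 3 per group, with the left and right folds of each animal as separate libraries. Control rabbits had neither injury nor injection, and in the other 4 groups the superficial mucosa of both folds had been stripped. The injury_only group received nothing further. The Col1 group received collagen type I, and the VFLP_man and VFLP_au groups received hydrogels that the labels call VFLP (man) and VFLP (au), at 20 µL per fold on day 7 after stripping. Tissue of the injured groups was collected 28 days after treatment. The day from which that time runs in injury_only, any collection day for control, and the animals' ages were not established here. By the title of the series these hydrogels are made from lamina propria of vocal folds. What man and au stand for was not established. Each library carries a batch letter, C or D, and what the letters stand for was not established here. All 6 control and 5 injury_only libraries are in batch C. The remaining 1 injury_only library and all 18 injected ones are in batch D.

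An epithelium wets its surface by moving salt, and water follows through aquaporins. Chloride enters the cell from the tissue side through the cotransporter NKCC1, the product of SLC12A2, and leaves at the surface through CFTR or the calcium-activated channel TMEM16A, the product of ANO1. The sodium channel ENaC, built from the products of SCNN1A, SCNN1B and SCNN1G, takes sodium and with it water back from the surface. On the vocal fold this thin liquid layer bears on the viscosity of the surface and on how easily the folds are set into vibration.

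Several libraries stood apart, and their values are given first because results below rest on them. The right fold of control animal 2 had the lowest depth, 14.2 M gene reads, in a series that reached from 14.2 to 31.9 M. Its general epithelium list (12 genes, such as EPCAM and CDH1) summed to 181 CPM (CPM is the read count scaled to the library's depth with TMM factors), against 1019 to 2917 CPM in the other control libraries. The left fold of injury_only animal 3 had 9.82% of its reads on a list of 19 secretory and gland genes, and the right fold of the same animal 0.222%. In the right fold of VFLP_au animal 3 that share was 4.51%, against 0.276 to 0.851% in the other libraries of its group. Genes of differentiated squamous epithelium, the lining of the vibrating edge, were present in every group, with none of the 17 found at 0 in any group. Skeletal muscle genes, which belong to the tissue below the mucosa, took 1.52 to 8.74% of reads in control libraries, 0.197 to 3.04% in injury_only and 0.00796 to 0.862% in VFLP_man. In whole tissue, fewer cells of a type and less RNA per cell cannot be told apart, and every level below is subject to that.

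Injured folds without injection were compared with uninjured folds, which asks how the channel genes stood after stripping. SCNN1A and CFTR rose, though the CFTR call held in only 5 of 20 alternative settings. The other 8 did not pass the test, and 6 of those 8 also had a positive log2 fold change. The chloride channel genes showed the largest fold changes, 6.43-fold for CFTR and 4.78-fold for ANO1, followed by 3.46-fold for SCNN1B, 3.38-fold for SCNN1G and 2.84-fold for SLC12A2, while AQP1 and AQP3 were the members with negative estimates. Of all genes tested, 22.1% passed and 8.33% passed as higher, against 2 of 10 members. In 6 members (AQP4, CFTR, SCNN1A, SCNN1B, ANO1 and SLC12A2) all 3 injury_only animals lay above all 3 control animals, where 42.3% of all genes had groups that did not overlap in either direction. The median log2 fold change was 1.403 over the members and 0.023 over all genes tested.

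SCNN1A encodes the alpha subunit of ENaC, without which the channel carries little current. Its level was 106, 51.4 and 104 CPM in control animals 1, 2 and 3, and 197, 183 and 219 CPM in injury_only. In the same order of animals it was 172, 173 and 221 CPM in Col1, 229, 161 and 175 CPM in VFLP_man, and 152, 154 and 195 CPM in VFLP_au. Every injured animal, injected or not, stood above every control animal, and the 4 injured groups overlapped one another. In injury_only the level was 2.34-fold that of control (log2 1.22, SE 0.25, 95% interval 0.69 to 1.76, edgeR adjusted p = 0.0058). The general epithelium list averaged 1801 ± 641 CPM in control (SD, n = 3 animals) and 2623 ± 53.5 CPM in injury_only, and its part in the SCNN1A difference was not tested. Left folds gave a log2 fold change of 0.81 (adjusted p = 0.15), a setting in which no gene of all those tested passed. Left control folds held 156, 74.0 and 129 CPM and right ones 56.4, 9.80 and 64.7 CPM. Left and right folds are the same animals, and no test of side within control was made. With the level of muscle genes as a covariate the log2 fold change was 0.92 (adjusted p = 0.098).

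SCNN1B and SCNN1G encode the beta and gamma subunits, which join the alpha subunit in the full channel. SCNN1B gave 0.951, 0.548 and 9.91 CPM in control, 15.5, 10.6 and 12.3 CPM in injury_only, 0.984, 2.36 and 9.15 CPM in Col1, 6.45, 17.7 and 5.11 CPM in VFLP_man, and 6.08, 0.575 and 14.1 CPM in VFLP_au. Its animals were close together in injury_only and widely scattered in control, Col1 and VFLP_au. SCNN1G was the member with the fewest reads, 111 in control and 450 in injury_only over all libraries of the group, and its animals ranged from 0.0914 to 2.63 CPM in control and from 2.12 to 4.98 CPM in injury_only. Its range was 0.530 to 2.37 CPM in Col1, 1.71 to 6.55 CPM in VFLP_man and 0.445 to 3.66 CPM in VFLP_au. Control and injury_only overlapped for SCNN1G and did not for SCNN1B. Neither passed the test against control, with log2 fold changes of 1.79 (95% interval -0.79 to 4.38) and 1.76 (-0.55 to 4.06). In both, control animal 3 was the high control. Its SCNN1B level was 7.17 CPM in the left fold and 13.01 CPM in the right, against 0.119 to 1.37 CPM in the other control animals. Its SCNN1G level was 0.968 CPM on the left and 4.71 CPM on the right. The ciliated epithelium list, 18 genes such as FOXJ1, summed to 393 CPM in that right fold. It summed to 5.02 to 21.9 CPM in the other control libraries, the left fold of animal 3 among them.

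CFTR encodes the cAMP-regulated anion channel that is defective in cystic fibrosis. In control its level was 2.46, 1.83 and 9.51 CPM, in injury_only 40.2, 22.6 and 17.5 CPM, in Col1 4.99, 11.2 and 8.50 CPM, in VFLP_man 18.6, 44.2 and 9.24 CPM, and in VFLP_au 8.76, 0.853 and 8.27 CPM. The injury_only animals stood above all those of control, Col1 and VFLP_au, and within the range of VFLP_man. Against control the log2 fold change in injury_only was 2.69 (SE 0.89, 95% interval 0.75 to 4.62, edgeR adjusted p = 0.048). That call was close to the threshold and was lost in 15 of the 20 alternative settings, in which the log2 fold change ran from 2.12 to 3.78 and the adjusted p from 0.0054 to 0.17. The folds of injury_only animal 1, the highest of its group, entered the reported fit as 2 units. With 15 animals and no batch term CFTR did not pass. The ciliated list averaged 776 ± 536 CPM in injury_only and 69.0 ± 100.1 CPM in control, and its part in the CFTR difference was not tested. Single folds were uneven, as in injury_only animal 2, with 5.81 CPM on the left and 41.1 CPM on the right, where the ciliated list stood at 126 and 1252 CPM.

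ANO1 and SLC12A2, the calcium-activated chloride channel and the chloride loader of secretory cells, varied as a pair. ANO1 gave 5.93, 2.33 and 3.71 CPM in control, 16.5, 12.8 and 26.7 CPM in injury_only, 10.3, 28.8 and 2.04 CPM in Col1, 6.78, 6.28 and 3.59 CPM in VFLP_man, and 3.18, 2.47 and 7.61 CPM in VFLP_au. SLC12A2 gave 11.2, 7.45 and 11.2 CPM in control, 30.0, 15.5 and 41.5 CPM in injury_only, 15.8, 29.6 and 5.67 CPM in Col1, 15.8, 17.0 and 8.90 CPM in VFLP_man, and 7.92, 7.996 and 17.7 CPM in VFLP_au. Both were highest in injury_only animal 3 among the animals without injection, and in Col1 both were high in animal 2 and low in animal 3. Against control ANO1 was just outside the threshold in injury_only (log2 2.26, SE 0.76, edgeR adjusted p = 0.051) and SLC12A2 was further out (log2 1.51, SE 0.55, adjusted p = 0.068), although in both genes the animals of the groups did not overlap. The left fold of injury_only animal 3 held 60.7 CPM of ANO1 and 86.1 CPM of SLC12A2, and the right fold 1.32 and 8.48 CPM. Without that left fold the log2 fold changes were 1.42 (adjusted p = 0.30) and 0.80 (adjusted p = 0.35).

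AQP5 encodes the apical water channel of gland and airway surface cells. Its level was 1068, 456 and 702 CPM in control, 789, 1254 and 965 CPM in injury_only, 1971, 2129 and 2711 CPM in Col1, 1271, 1149.5 and 1848 CPM in VFLP_man, and 1574, 1850.3 and 1392 CPM in VFLP_au. By group mean the order was control, injury_only, VFLP_man, VFLP_au and Col1, from lowest to highest. Neighbours in that order overlapped, except that the 3 Col1 animals stood above those of every other group, and all 9 injected animals stood above the 3 controls. The injury_only difference from control did not pass the test (log2 0.38, 95% interval -0.31 to 1.07).

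AQP3 encodes a basolateral channel for water and glycerol that is typical of basal and stratified epithelium. It gave 430.0, 161 and 576 CPM in control, 346, 413 and 282 CPM in injury_only, 949, 563 and 821 CPM in Col1, 856, 322 and 399 CPM in VFLP_man, and 603, 749 and 338 CPM in VFLP_au. Col1 animals lay above those of injury_only, and all other pairs of groups overlapped. AQP4, a basolateral water channel of airway and gland cells that is best known from astrocytes, ranged more widely. It gave 26.0, 38.5 and 49.3 CPM in control, 112, 64.6 and 81.0 CPM in injury_only, 37.6, 13.7 and 11.8 CPM in Col1, 15.7, 127 and 56.9 CPM in VFLP_man, and 34.2, 1.04 and 75.0 CPM in VFLP_au. Injury_only lay above control and above Col1 in every animal, yet neither difference passed the test (log2 1.30, 95% interval -0.92 to 3.52, against control). Within animals the median difference of AQP4 between folds was 1.47 on the log2 scale, as large as the median of 1.32 between animals of a group.

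AQP1 encodes the water channel of capillary endothelium and some fibroblasts and red cells, and was the member that ran lower in the injured groups. Its level was 317, 997 and 462 CPM in control, 316, 415 and 250.1 CPM in injury_only, 193, 189 and 259 CPM in Col1, 109, 90.1 and 74.7 CPM in VFLP_man, and 283, 109.9 and 160.0 CPM in VFLP_au. By mean the order was control, injury_only, Col1, VFLP_au and VFLP_man, from highest to lowest. Neighbouring groups overlapped down to VFLP_au, whose lowest animal stood just above the highest of VFLP_man. Injury_only against control did not pass the test (log2 -0.73, 95% interval -1.63 to 0.17). The endothelium list of 15 genes followed the same order of means: 683 ± 455, 367 ± 147, 227 ± 17.4, 184 ± 60.1 and 129 ± 19.0 CPM. The fibroblast list of 14 genes averaged 3604 ± 668 CPM in control and 1590.3 ± 391 CPM in injury_only, and 865 ± 380, 816 ± 205 and 1271 ± 364 CPM with Col1, VFLP_man and VFLP_au. Against control, 14, 13 and 10 of its 14 genes passed as lower with those materials, where 18.6%, 20.5% and 16.7% of all genes did. Group and batch cannot be told apart in those comparisons.

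**Figure D1:**
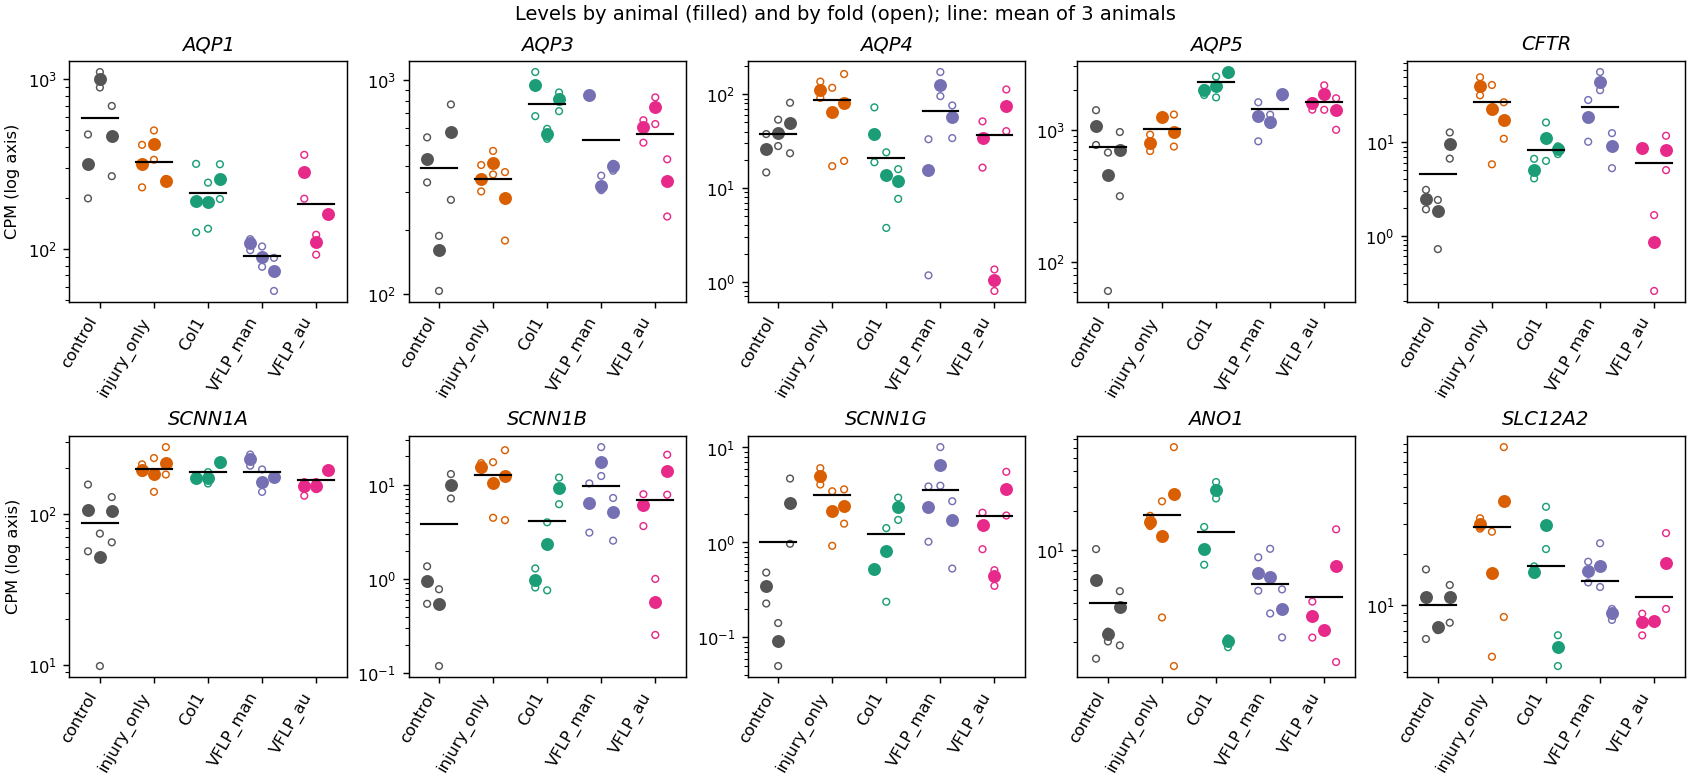
Levels of the 10 genes in CPM (vertical log axis) by group (horizontal axis), with animals as filled points, single folds as open points (values under 0.05 CPM drawn at 0.05) and the mean of 3 animals as a line. SCNN1A stands at 152 CPM or more in every injured animal against at most 106 CPM in control, AQP5 is highest in Col1, and AQP1 is lowest in VFLP_man with 74.7 to 109 CPM.

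Each injected group was compared with injury_only, which asks what the injected material changed in stripped folds. No member passed in any of these 3 comparisons. The members of smallest p were lower AQP1 with VFLP_man, higher AQP5 with Col1, and lower ANO1 and CFTR with VFLP_au. The 3 comparisons share the injury_only animals, so a high or low value there enters all of them. The injected groups are also in another batch than 5 of the 6 injury_only libraries. In injury_only animal 1, whose folds are in different batches, the members differed between the folds by -0.83 to 0.41 on the log2 scale (batch D minus batch C, median -0.24), which cannot be told apart from the difference between sides.

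With Col1, AQP5 was 2.26-fold its level in injury_only (log2 1.18, SE 0.31, 95% interval 0.51 to 1.84, edgeR adjusted p = 0.27), from 1003 ± 235 to 2270.2 ± 390.1 CPM. It ranked 133 of 17770 genes by p. AQP3 was 2.24-fold higher (log2 1.16, SE 0.47, adjusted p = 0.32). The log2 fold changes of the other members ran from -2.03 (AQP4) to -0.079 (SCNN1A). Animals did not overlap in 5 of 10 members, AQP3 and AQP5 higher and AQP4, CFTR and SCNN1B lower, where 22.9% of all genes did not overlap. Of all genes 0% passed by edgeR, although 2530 had an unadjusted p below 0.05. DESeq2 called 380 genes, AQP5 among them (adjusted p = 0.014), and limma voom, which had a batch term, called 0.

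With VFLP_man, AQP1 was 3.59-fold lower than in injury_only (log2 -1.84, SE 0.42, 95% interval -2.76 to -0.93, edgeR adjusted p = 0.056). ANO1 was 3.36-fold lower (log2 -1.75, SE 0.74, adjusted p = 0.26). These 2 were also the members whose animals did not overlap, where 24.8% of all genes did not. Of all genes 1.06% passed, 0.0732% as higher and 0.99% as lower. AQP1 passed in 4 of the 20 alternative settings: DESeq2 (adjusted p = 7.0e-04), left folds alone (0.030), without the injury_only library of batch D (0.031) and without the control library of lowest depth (0.037). Over all 20 alternative settings the highest adjusted p of AQP1 was 0.9998. Without the left fold of injury_only animal 3 the log2 fold change of ANO1 was -0.88 (adjusted p = 0.77). The remaining members were between -1.06 (SLC12A2) and 0.60 (AQP3), and CFTR, with -0.16 (95% interval -1.93 to 1.62), and SCNN1A, with -0.08 (-0.61 to 0.44), were among the nearest to 0.

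With VFLP_au, ANO1 was 4.22-fold lower (log2 -2.08, SE 0.75, edgeR adjusted p = 0.36) and CFTR 4.49-fold lower (log2 -2.17, SE 0.86, adjusted p = 0.36). SLC12A2 (log2 -1.37, adjusted p = 0.36) and AQP5 (log2 0.68, adjusted p = 0.38) had an unadjusted p under 0.05 as well and were picked out after their values were seen. Without the left fold of injury_only animal 3, the log2 fold changes of ANO1, CFTR and SLC12A2 were -1.21, -2.04 and -0.68, with adjusted p of 0.73, 0.70 and 0.75. Animals did not overlap in AQP5 (higher) and in CFTR and ANO1 (lower), against 21.8% of all genes. Of all genes 0% passed by edgeR, although 2289 had an unadjusted p below 0.05. DESeq2 called 211, no member among them, and limma voom, which had a batch term, 0. The median log2 fold change over the members was -0.86, against 0.013 over all genes tested.

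**Figure D2:**
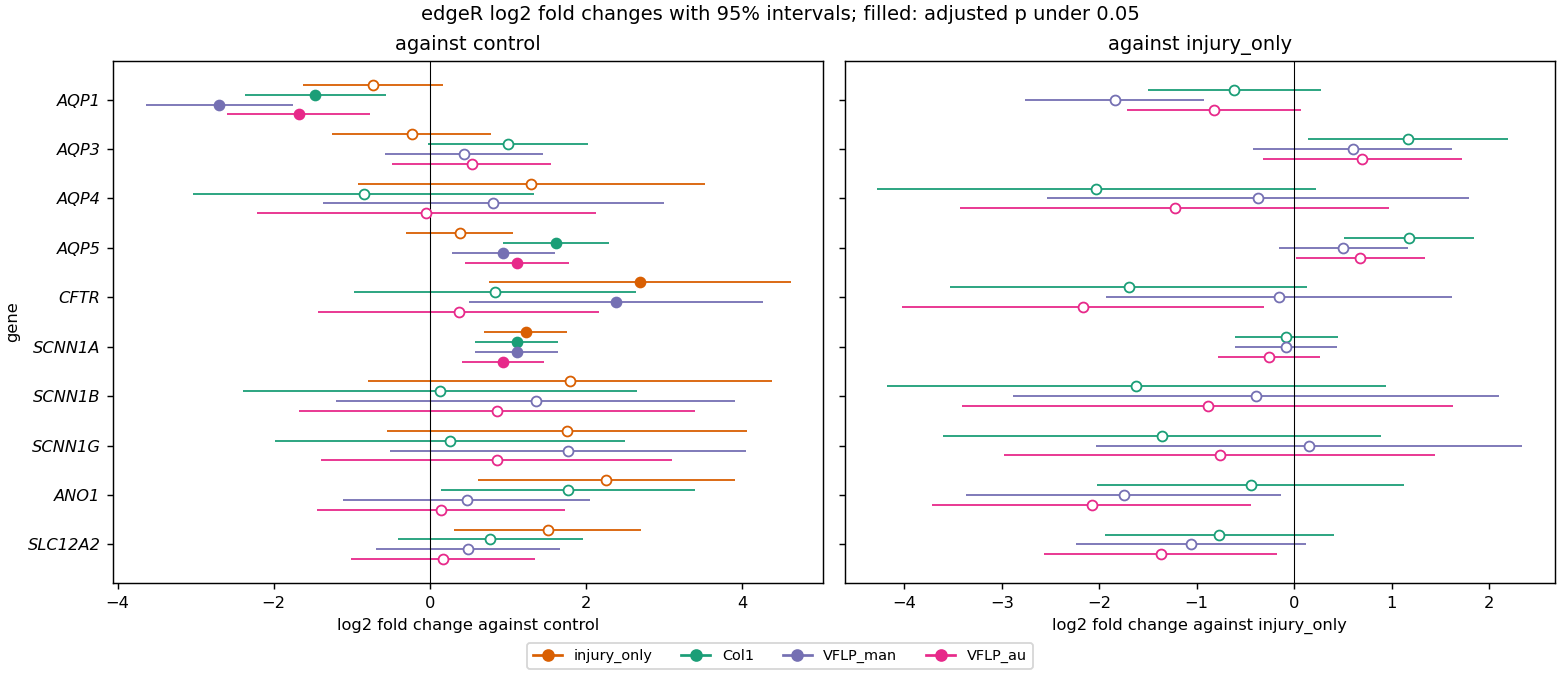
Log2 fold changes (horizontal axis) of the 10 genes (vertical axis) against control on the left and against injury_only on the right, with 95% intervals as lines and filled points where the edgeR adjusted p is under 0.05. SCNN1A is filled and near 1 in all 4 groups against control, AQP1 is filled and below 0 in the 3 injected groups, and no point is filled against injury_only.

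The injected groups were also set against uninjured folds. AQP5 and SCNN1A rose and AQP1 fell in all 3 comparisons, which share the control animals, and CFTR rose with VFLP_man. With Col1, AQP5 was 3.06-fold higher (log2 1.61, SE 0.31, edgeR adjusted p = 0.0024), SCNN1A 2.16-fold higher (log2 1.11, SE 0.25, adjusted p = 0.0050) and AQP1 2.77-fold lower (log2 -1.47, SE 0.42, adjusted p = 0.018), where 32.1% of all genes passed. With VFLP_man, AQP1 was 6.49-fold lower (log2 -2.70, SE 0.43, adjusted p = 5.7e-04), SCNN1A 2.16-fold higher (adjusted p = 0.0040), AQP5 1.92-fold higher (adjusted p = 0.030) and CFTR 5.21-fold higher (log2 2.38, SE 0.86, adjusted p = 0.047), where 37.3% passed. The call for CFTR rested on overlapping animals, since control animal 3 (9.51 CPM) stood above VFLP_man animal 3 (9.24 CPM), and it was lost in 14 of 19 alternative settings, with log2 fold changes from 1.57 (without VFLP_man animal 2) to 4.12. With VFLP_au, AQP1 was 3.21-fold lower (log2 -1.68, SE 0.42, adjusted p = 0.012), AQP5 2.16-fold higher (log2 1.11, SE 0.31, adjusted p = 0.019) and SCNN1A 1.91-fold higher (log2 0.94, SE 0.24, adjusted p = 0.015), where 27.5% passed. AQP1, AQP5 and SCNN1A were the members whose animals did not overlap in each of the 3 comparisons, where 45.8%, 48.7% and 42.7% of all genes did not.

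Control libraries are all in batch C and injected libraries all in batch D, so group and batch cannot be told apart in these comparisons. With a batch term, which rests on the 1 injury_only library in batch D, no member passed in any of the 3: for SCNN1A the log2 values were then 1.27, 1.27 and 1.10, for AQP5 1.73, 1.05 and 1.23, and for AQP1 -0.81, -2.04 and -1.02, with Col1, VFLP_man and VFLP_au. Control animal 2, the highest in AQP1 and the lowest in SCNN1A and AQP5, was left out in turn. Without it AQP1 was at -0.89 (adjusted p = 0.095) with Col1 and -1.12 (adjusted p = 0.054) with VFLP_au, and AQP5 at 0.66 (adjusted p = 0.11) with VFLP_man and 0.82 (adjusted p = 0.077) with VFLP_au. Leaving out single other animals also ended calls, with adjusted p up to 0.12: for AQP1 with Col1 (Col1 animal 1 or 2) and VFLP_au (VFLP_au animal 2), for AQP5 with VFLP_man (VFLP_man animal 3, control animal 3) and VFLP_au (VFLP_au animal 2, control animal 3), and for SCNN1A with VFLP_au (VFLP_au animal 3). In left folds alone SCNN1A was at 0.64, 0.68 and 0.48 with Col1, VFLP_man and VFLP_au and passed in none. The general epithelium list averaged 3341 ± 585, 2933 ± 256 and 2755 ± 290.4 CPM in Col1, VFLP_man and VFLP_au, above the 1801 CPM of control, and skeletal muscle genes 6007, 2226 and 10641 CPM against 77130.3 CPM. With the muscle level as a covariate no member passed. The part of these tissue differences in the member results was not tested beyond that.

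Among the materials no member passed. VFLP_man animals were lower than Col1 animals in AQP1 (log2 -1.23, SE 0.42, 95% interval -2.13 to -0.32, edgeR adjusted p = 0.32) and AQP5 (log2 -0.67, SE 0.32, adjusted p = 0.49), and these were the 2 members without overlap, where 15% of all genes had none. By p, the members that differed most between VFLP_au and Col1 were ANO1 (log2 -1.63, SE 0.74, adjusted p = 0.99) and AQP5 (log2 -0.50, 95% interval -1.19 to 0.19), although AQP4, SCNN1B, SLC12A2 and SCNN1G had larger estimates than AQP5. Only AQP5 had no overlap, against 9.37% of all genes. Between VFLP_man and VFLP_au the members of smallest p were AQP1 (log2 -1.02, SE 0.41, adjusted p = 0.53) and CFTR (log2 2.01, SE 0.87, 95% interval 0.13 to 3.89, adjusted p = 0.57), the 2 members without overlap, against 14.3%. SCNN1A was close to equal in the 3 groups, with intervals that exclude a change of more than 1 on the log2 scale in each pair: -0.53 to 0.52, -0.70 to 0.35 and -0.35 to 0.70. All 18 libraries are in 1 batch here. Of all genes 0%, 0% and 0.0505% passed by edgeR in the 3 comparisons, and 1832, 829 and 1489 had an unadjusted p below 0.05. DESeq2 called 389, 33 and 389 genes and limma voom 5, 11 and 29.

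Over the 5 groups together, AQP1 (edgeR adjusted p = 0.0039), AQP5 (0.012) and SCNN1A (0.017) passed, 3 of 10 members where 28.4% of all genes passed. ANO1 (0.078) and CFTR (0.079) followed. With a batch term no member passed.

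The folds of an animal gave a measure of local unevenness. In the median animal SCNN1A differed between folds by 0.25 on the log2 scale, AQP3 by 0.41 and AQP5 by 0.52, whereas CFTR, SCNN1G, SCNN1B and AQP4 differed by 1.21 to 1.47. The widest gaps were 5.43 for ANO1 in injury_only animal 3, 4.73 for AQP4 in VFLP_man animal 1, 3.46 for AQP5 and 2.91 for SCNN1A in control animal 2, and 3.33 for SLC12A2 in injury_only animal 3. Right folds were compared with left folds in the 14 animals with both in 1 batch, and 0% of 16819 genes passed by edgeR. An unadjusted p below 0.05 was reached by 1342 genes, and DESeq2 called 14. AQP5 was 1.59-fold lower on the right (log2 -0.67, SE 0.23, adjusted p = 0.60) and SCNN1A 1.28-fold lower (log2 -0.36, SE 0.23, adjusted p = 0.61). The other members lay between -0.25 and 0.48.

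**Figure D3:**
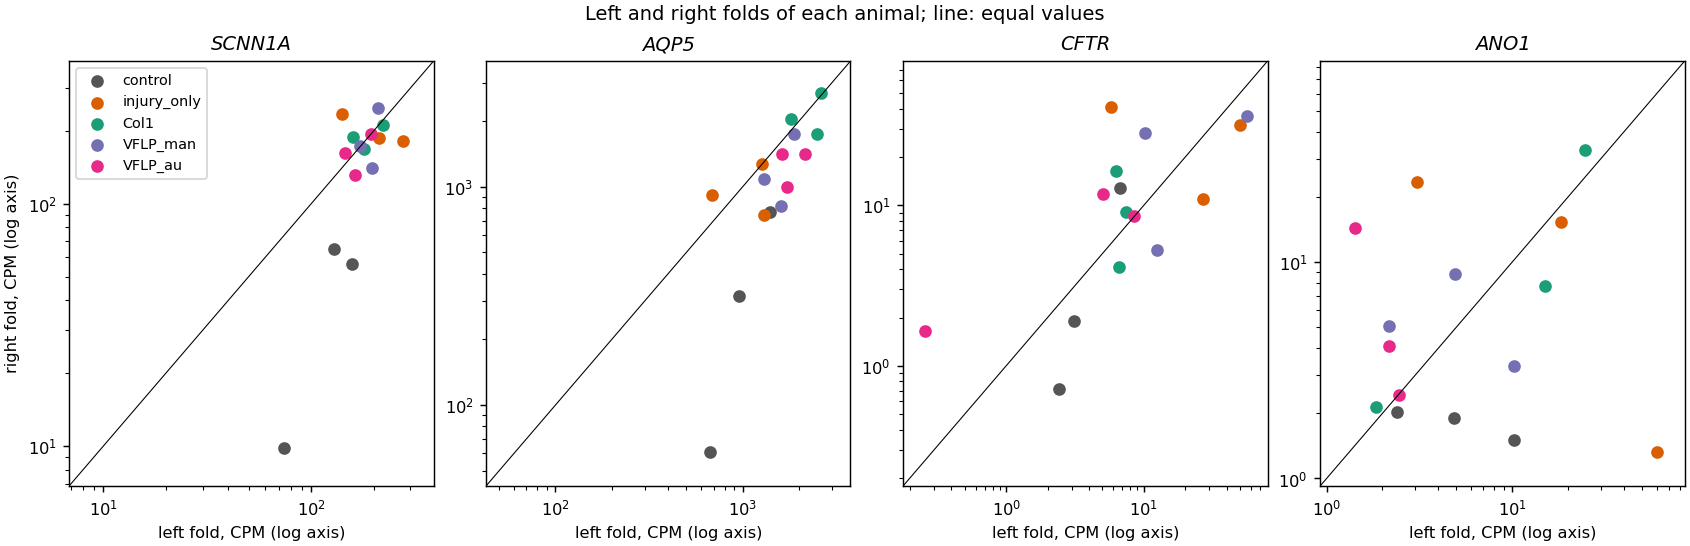
Left fold (horizontal log axis) against right fold (vertical log axis) in CPM for SCNN1A, AQP5, CFTR and ANO1, 1 point per animal, coloured by group, with a line of equal values. SCNN1A and AQP5 lie farthest from the line in control animal 2, whose right fold is lowest (9.80 and 60.9 CPM), while ANO1 reaches 60.7 CPM on the left against 1.32 CPM on the right in 1 injury_only animal.

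Across the 15 animals the members fell into pairs. Correlations of log2 CPM are given as descriptions, since animals share groups, batches and tissue make-up, and the value after taking out group means stands second. SCNN1B and SCNN1G correlated at r = 0.956 (0.951), ANO1 and SLC12A2 at 0.954 (0.946), and CFTR with SCNN1B at 0.872 (0.873) and with SCNN1G at 0.848 (0.840). AQP3 and AQP5 correlated at 0.709 (0.473). The alpha subunit gene SCNN1A correlated with its partners at 0.687 (0.587) for SCNN1G and 0.576 (0.488) for SCNN1B. Over all 45 pairs r ran from -0.63 to 0.956 with a median of 0.283, the lowest being AQP1 with SCNN1A. In the RefSeq gene order of assembly mOryCun1.1, COG7 is next to SCNN1B, USP31 is next to SCNN1G, and AQP5 lies between AQP2 and AQP6.

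**Figure D4:**
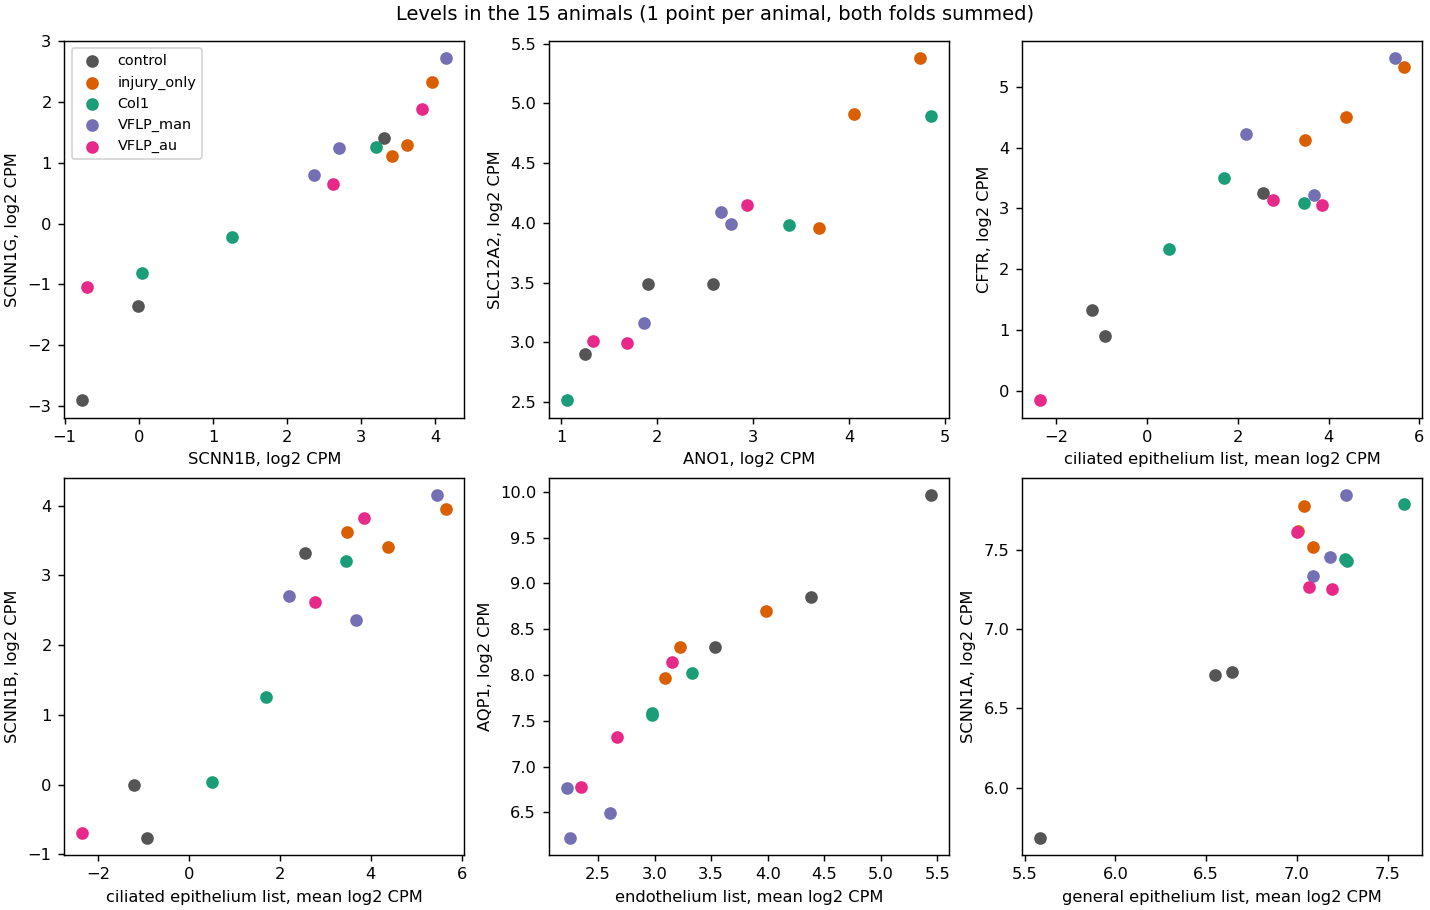
Log2 CPM of pairs of genes, or of a gene against the mean log2 CPM of a marker list, with 1 point per animal (n = 15) coloured by group. SCNN1B and SCNN1G (r = 0.956) and ANO1 and SLC12A2 (r = 0.954) vary together within and across groups, and CFTR and SCNN1B vary with the ciliated list (r = 0.93 and 0.94), AQP1 with the endothelium list (0.95) and SCNN1A with the general epithelium list (0.92).

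The members were also set beside the cell type lists, each list taken as the mean log2 CPM of its genes that passed the filter. CFTR, SCNN1B and SCNN1G went with the ciliated list at r = 0.93, 0.94 and 0.90 (0.89, 0.93 and 0.86 with group means out). With the ionocyte list, 8 genes of the rare airway cell known for high CFTR, they stood at 0.79, 0.84 and 0.87 (0.67, 0.78 and 0.78). FOXI1, the transcription factor that defines ionocytes, had 320 reads in injury_only and 438 in VFLP_man, against 46 in control, 99 in Col1 and 119 in VFLP_au. Those are read totals over each group, not scaled to depth. The ionocyte list summed to 20.5 ± 1.75 CPM in control and 41.6 ± 15.6 CPM in injury_only. In Col1, VFLP_man and VFLP_au it summed to 33.6 ± 7.63, 46.5 ± 13.8 and 35.3 ± 6.50 CPM. By that sum every injured animal lay above the highest control, 21.6 CPM. The mean log2 CPM of the list, used for the correlations, did not part them so. It was -0.99, -1.76 and -0.03 in control and 1.76, 0.93 and 0.03 in injury_only. Col1 animal 1 (-0.68), VFLP_man animal 1 (-0.23) and VFLP_au animal 2 (-1.22) lay within the control range. ANO1 and SLC12A2 went with the secretory list at 0.75 and 0.70 (0.52 and 0.50). With that list CFTR, SCNN1B and SCNN1G stood at 0.66, 0.62 and 0.57 (0.66, 0.62 and 0.61). With group means out they were higher there than ANO1 and SLC12A2. A list for interstitial cells of Cajal, a cell type that ANO1 marks in the gut, had 4 tested genes. ANO1 and SLC12A2 stood at 0.73 and 0.70 (0.73 and 0.73) with it, and at -0.32 and -0.31 (-0.72 and -0.72) with the fibroblast list. AQP4 followed the ciliated list at 0.71 (0.76), the secretory list at 0.62 (0.78) and the Cajal list at 0.62 (0.67). SCNN1A followed general epithelium at 0.92 (0.86), AQP5 the basal list at 0.85 (0.81) and general epithelium at 0.85 (0.74), AQP3 the basal list at 0.81 (0.72), and AQP1 endothelium at 0.95 (0.91) and fibroblast at 0.85 (0.71). AQP5 stood at 0.12 (0.02) with the secretory list and 0.02 (-0.18) with the ciliated list.

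**Figure D5:**
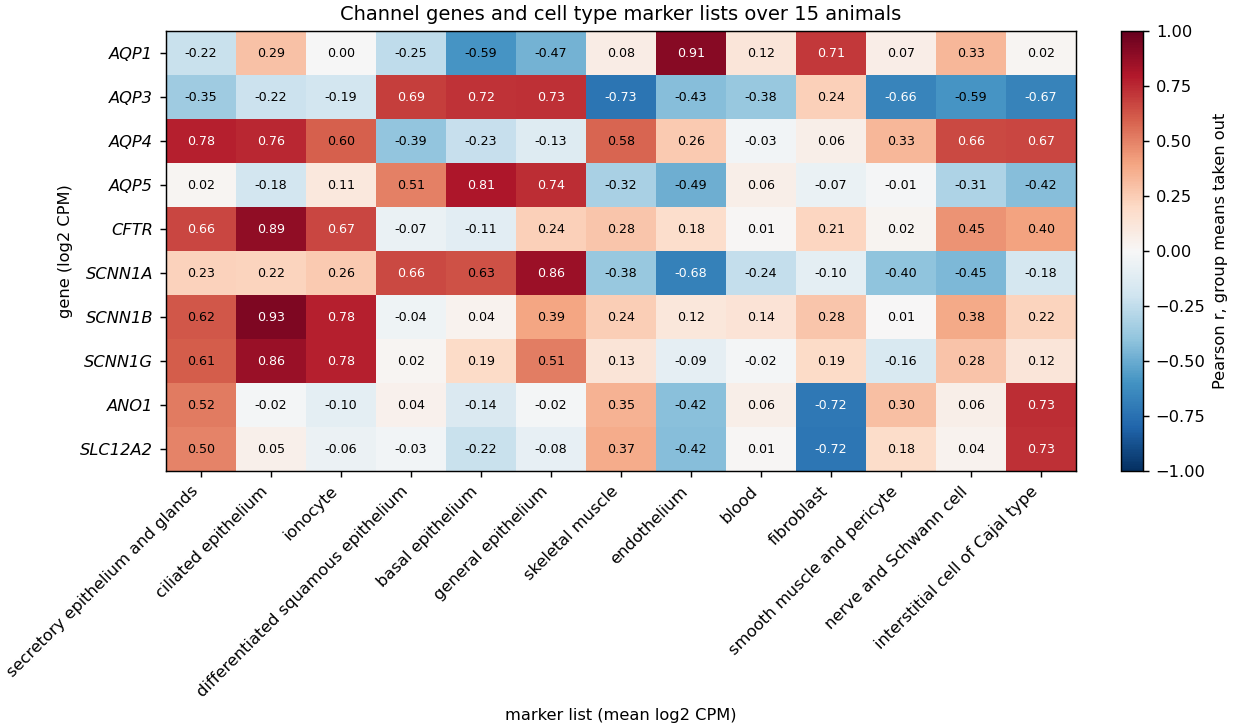
Pearson r over 15 animals between each gene (vertical axis, log2 CPM) and each cell type list (horizontal axis, mean log2 CPM), after taking out group means, with the colour scale from -1 to 1. The highest cells are SCNN1B with the ciliated list (0.93) and AQP1 with the endothelium list (0.91), and SCNN1A is highest with general epithelium (0.86).

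Those lists differed between groups, which belongs beside each member result. The secretory list was highest in injury_only (37310.4 ± 12758 CPM) and Col1 (26613 ± 17894 CPM), followed by VFLP_man (11177 ± 8865 CPM), VFLP_au (11065 ± 11214 CPM) and control (7265 ± 5253 CPM). BPIFB2 and LPO, both secretory markers, were at 0 in control, and BPIFB2 was at 0 in Col1. The ciliated list averaged 123 ± 122 CPM in Col1, 540.2 ± 598 in VFLP_man and 193 ± 203 in VFLP_au, after the control and injury_only values given above, with none of its 18 genes at 0 in any group. Of its genes 3 of 18 passed as higher in injury_only against control, of the secretory list 4 of 18, of general epithelium 4 of 12, and of ionocyte genes 0 of 8, where 8.33% of all genes did. As lower passed 4 of 15 endothelium, 6 of 14 fibroblast, 13 of 24 skeletal muscle and 3 of 10 smooth muscle and pericyte genes, and 1 of 10 nerve genes, where 13.7% of all genes did. No gene passed of the squamous, basal, blood and Cajal lists. The part of these lists in the member results was not tested.

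For each member the 3 genes most like it over the 15 animals were taken from those of at least 1 CPM with a symbol. The ciliary axoneme genes DNALI1 and CFAP100 were among those nearest to SCNN1G (r = 0.967 and 0.956), and the ciliary kinase gene MAPK15 and PIFO among those nearest to SCNN1B (0.966 and 0.963), with ZNF474 in both sets. CFTR was nearest to PRR15, B3GNT7 and SLC27A2 (0.955 to 0.963). ST8SIA1 and ARFGEF3 were shared by ANO1 (0.961 and 0.958) and SLC12A2 (0.908 and 0.917), with KIF16B and SLAIN1 as the third gene of each. AQP4 was nearest to VIPR2, a receptor for vasoactive intestinal peptide (0.961), FAM169BP and RALGAPA1, and AQP5 to PLEKHG3, TBC1D10A and SYNJ2 (0.942 to 0.960). AQP3 was nearest to TRAPPC14, EFNB1 and RAP2B (0.921 to 0.939), SCNN1A to SIPA1L3, DLG3 and TMC4 (0.941 to 0.943), and AQP1 to IGFBP4, CHAD and PEAR1 (0.969 to 0.975). With group means taken out, r fell to 0.754 to 0.810 for SCNN1A and 0.818 to 0.895 for AQP5. For the other members it was then 0.879 or more.

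Other genes of the pathway were counted from 4 lists. Of 10 other aquaporins 4 had enough reads to test, and none passed in injury_only against control. The highest group mean among them was 1.81 CPM, of AQP2 in VFLP_au, and AQP7 passed once, 7.22-fold lower in Col1 than in control on 39 reads in control and 9 in Col1 (edgeR adjusted p = 0.049), with the opposite direction in 2 of 15 alternative settings. Of 17 anion channels and exchangers, 1 rose and 5 fell in injury_only against control (median log2 -0.25), where 8.33% of all genes rose and 13.7% fell. SLC26A6, a chloride and bicarbonate exchanger, fell 2.24-fold (adjusted p = 0.0021), the lipid scramblase and channel ANO6 fell 1.83-fold (adjusted p = 0.0029), and the sodium bicarbonate cotransporter SLC4A7 fell 2.26-fold (adjusted p = 0.0043). Their direction held in all 20 alternative settings and their call in 18 or 19. Each call was lost in left folds alone, and those of ANO6 and SLC4A7 also with the muscle covariate.

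Of 19 regulators of the sodium channel, 3 rose and 2 fell in injury_only against control (median log2 0.43), beside the same 8.33% and 13.7% of all genes. The serine protease TMPRSS2 rose 2.18-fold (edgeR adjusted p = 0.0046) and the protease inhibitor SPINT2 rose 2.17-fold (adjusted p = 0.0095), while TSC22D3, a glucocorticoid-induced gene whose product promotes ENaC at the membrane, fell 2.31-fold (adjusted p = 0.0056). In the injected groups against control 7 rose and 2 fell with Col1, 7 and 2 with VFLP_man, and 4 and 2 with VFLP_au, all on shared controls. Of all genes 13.5% rose and 18.6% fell with Col1, 16.7% and 20.5% with VFLP_man, and 10.8% and 16.7% with VFLP_au. None of these regulator calls held with a batch term or with the muscle covariate. TSC22D3 was the gene of smallest p in each, at 3.22-fold, 3.34-fold and 2.78-fold lower, and its calls were among those lost. Of 21 genes for driving force and signals, 5 rose and 3 fell in injury_only against control (median log2 0.36), again beside 8.33% and 13.7% of all genes. The potassium channel KCNK5 rose 3.53-fold (adjusted p = 0.0037), and KCNMA1, a large-conductance potassium channel also of smooth muscle, fell 3.87-fold (adjusted p = 0.0031), as did the sodium pump subunit ATP1B1, 1.93-fold (adjusted p = 0.0087). The calls of KCNK5, KCNMA1 and ATP1B1 held in 19, 18 and 17 of 20 alternative settings. Each was lost in left folds alone, and those of KCNMA1 and ATP1B1 also with the muscle covariate. The summed list of smooth muscle and pericyte genes averaged 3075 ± 1252 CPM in control and 1054 ± 299 CPM in injury_only. Against injury_only, 2 of all these genes passed, both with VFLP_man: KCNMA1 was 4.02-fold lower (adjusted p = 0.043) and ANO6 1.67-fold lower (adjusted p = 0.047), and those calls held in 11 and 9 of 20 alternative settings.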

How the data were processed

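RNA was measured in 30 libraries from 15 rabbits, made per the labels from poly(A) RNA with the KAPA mRNA HyperPrep kit and sequenced as paired reads. The authors deposited unnormalised read counts for every gene, and the submitters' processing notes name STAR 2.7.10b. The genome build and its annotation: not given in the sources used here. Column 4 of each table, the counts for 1 strand, was used, which held 97.4 to 99.6% of the members' reads that were assigned to either strand. Depth was 14.2 to 31.9 M gene reads (median 22.7 M); summary lines without a gene stayed out. No 2 libraries held identical counts.

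Folds of an animal were summed. Tests used edgeR 4.0.16 in R 4.3.3 (quasi-likelihood F test, TMM factors, filterByExpr at a minimum count of 10), fitted on all genes of all 5 groups, with Benjamini-Hochberg adjustment over the genes tested and a threshold of 0.05. Injury_only against control and comparisons between materials used 16 units (the folds of injury_only animal 1, which are in different batches, kept apart) with batch as a term, 17815 genes. Other group comparisons used 15 animals without it, 17770 genes. The SE is the absolute log2 fold change over the square root of F. Log2 CPM has a prior count of 2. An n in the text counts rabbits, but in the fit on 16 units injury_only animal 1 enters as 2 units. With 15 animals and no batch term 1 member, SCNN1A, passed in injury_only against control.

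All 10 members are named, with a fold change for those past the threshold in a comparison and otherwise for the 2 of smallest p, further ones being marked. Members, gene lists and tests were chosen with earlier results of these data known, and pathway and cell type lists carry no test of their own. Alternatives were DESeq2 1.42.0, edgeR with the size factors of DESeq2, all genes kept whatever their counts, unstranded counts, limma 3.58.1 voom on 30 libraries, the replicate number as a block, left or right folds alone, batch handled the other way, only the groups compared, muscle level as a covariate and each animal left out. The voom fit had a batch term in every group comparison. Where the reported fit had none, voom changed the method and the batch handling together. Leaving out 3 single libraries was added after seeing the data. The fits were tested on simulated data. RefSeq names (assembly mOryCun1.1) matched all 10 symbols and served for names and gene order only. No sequences were used here.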

Additional observations from a re-analysis of the deposited data

Results flagged for a closer look

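Each member was checked in each group for 1 library lying far from the other 5, 50 checks in all, of which 9 met the criterion for the gap and all at the high end. For independent, normally distributed values chance flags about 1 in 20 groups. These checks are not independent, since 4 of the 9 fall in 1 library, and the distribution of CPM was not tested. The values are single-fold CPM.

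In the left fold of injury_only animal 3, ANO1 reached 60.7 CPM (next highest 23.5) and SLC12A2 86.1 CPM (next 32.6). That library also had the highest share of secretory genes, 9.82% of reads. In the right fold of VFLP_au animal 3, where the secretory share was 4.51% and the ciliated list 635 CPM, 4 members were far above the other libraries of the group. These were SCNN1B with 20.9 CPM (next 7.96), SCNN1G with 5.54 CPM (next 2.06), ANO1 with 14.4 CPM (next 4.08) and SLC12A2 with 26.6 CPM (next 9.47).

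SCNN1G was also high in the right fold of control animal 3, at 4.71 CPM (next 0.968), where the ciliated list stood at 393 CPM against at most 21.9 CPM in other control libraries. In the left fold of VFLP_man animal 2 it was at 10.1 CPM (next 3.96), and the ciliated list there was the highest of its group at 1636 CPM. AQP4 in the left fold of Col1 animal 1 was at 72.4 CPM (next 24.0, lowest 3.75). The part of these marker levels in the single values was not tested.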

How the results depend on the processing

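Over the alternatives, 680 single values were recomputed: log2 fold changes of the members named by rule or marked as further ones (AQP1, AQP3, AQP5, CFTR, SCNN1A, ANO1 and SLC12A2) and the 5-group adjusted p of AQP1, AQP5 and SCNN1A. No log2 fold change among them changed direction, while 571 values kept their side of the threshold, 97 lost a call and 12 gained one. Counts of members past the threshold are given below as reported count, then alternatives, and the cause of each difference was not tested.

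Injury_only against control gave 2 members, 4 with DESeq2, and 0 each with the muscle covariate and left folds alone. It gave 1 member each with no filter on low counts, limma voom, right folds alone, the batch term left out, without the control library of lowest depth and without the injury_only library of highest secretory level, and 1 to 3 with each animal left out. Col1 against injury_only gave 0, and 1 with DESeq2. VFLP_man against injury_only gave 0, and 1 each with DESeq2, left folds alone, without the injury_only library of batch D and without the control library of lowest depth. Col1 against control gave 3, 0 each with limma voom, left folds alone, the batch term and the muscle covariate, 5 with right folds alone, and 2 to 4 with each animal left out. VFLP_man against control gave 4, 0 each with limma voom, the batch term and the muscle covariate, 1 each with left folds alone and only the groups compared, and 2 to 5 with each animal left out. VFLP_au against control gave 3, 0 each with limma voom, left folds alone, the batch term, only the groups compared and the muscle covariate, and 1 to 3 with each animal left out. The 5-group test gave 3, 5 with DESeq2, 1 with left folds alone, 0 each with limma voom, the batch term and the muscle covariate, and 3 to 4 with each animal left out. The other comparisons gave 0 members throughout.

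Animals of different groups share replicate numbers, but same-numbered animals did not deviate together (r from -0.50 to 0.36 over 30 pairs, 8 above 0.1), so the numbers were not taken as pairs. With the replicate block 1 member passed in injury_only against control and 2 in VFLP_man against control, and the other counts of members did not move.

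Counts over all genes moved by more than 1.5 times as follows. Injury_only against control (3933 genes) gave 0 with left folds alone, 2064 with only the groups compared, 808 with the muscle covariate, 1981 without injury_only animal 1 and 1733 without control animal 2. Col1 against injury_only (0) gave 380 with DESeq2 and 3 with only the groups compared, and VFLP_au against injury_only (0) gave 211 and 1. VFLP_man against injury_only (189) gave 1249 with DESeq2, 711 with left folds, 0 each with right folds, limma voom, the batch term and the muscle covariate, 4 with only the groups compared, 463, 373 and 75 without the batch D, lowest-depth and highest-secretory libraries, and 0 to 300 with an animal left out. Against control, Col1 (5702), VFLP_man (6623) and VFLP_au (4884) gave 0 each with limma voom and the muscle covariate, 0, 29 and 0 with the batch term, 18, 2867 and 1706 with left folds, and 3628, 4094 and 2670 with only the groups compared. Without control animal 2, Col1 gave 3658 and VFLP_au 2528, and without VFLP_au animal 2 the latter gave 3040. VFLP_man against Col1 (0) gave 389 with DESeq2, 327 with left folds and at most 5 otherwise, and VFLP_au against Col1 (0) gave 33 with DESeq2 and 11 with limma voom. VFLP_man against VFLP_au (9) gave 389 with DESeq2, 29 with limma voom, 4 with the replicate block, 57 without the lowest-depth control library, 0 each with left folds, right folds, only the groups compared and the muscle covariate, and 0 to 139 with an animal left out. The 5-group test (5046) gave 7826 with DESeq2, 655 with limma voom, 1663 with left folds, 1535 with the batch term, 0 with the muscle covariate, 2924 without control animal 2 and 3247 without control animal 3. Right against left (0) gave 14 with DESeq2.

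Depth limits SCNN1G most, with 111 reads over the 6 control libraries. With 3 animals per group and folds that differ widely, the intervals of AQP4, CFTR, SCNN1B, SCNN1G and ANO1 span several log2 units. Control and injected groups lie in different batches, and a batch term rests on 1 library. Tissue make-up differed between groups, and no adjustment for it was made beyond the alternative with the muscle covariate.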
